A study of Mus musculus with 24 samples.

Results

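The genes described here are 10 genes of glucose use and of the known response to low oxygen. They are the glucose transporter Slc2a1, the hexokinases Hk1 and Hk2, the phosphofructokinase Pfkp, the pyruvate kinase Pkm, the lactate dehydrogenase Ldha, the secreted factors Vegfa and Angptl4, the mitochondrial protein Bnip3 and the stress-responsive gene Ndrg1. They were taken by symbol from a table of 25239 genes, and all 10 passed the filter that left 13549 genes for testing, a mean of at least 10 normalised counts over 24 libraries. RNA came from primary tracheal epithelial cells of mice of the wild-type FVB/NJ strain, 7 to 8 weeks old, grown into a pseudostratified epithelium with its upper side in air for 10 to 14 days. Inserts then received humidified air or cigarette smoke for 10 days, with 2 cigarettes burned per smoke exposure over about 8 minutes. Each sex has 6 inserts in smoke and 6 in air. No label gives an oxygen level, so hypoxia-responsive names what these genes are known for and not a condition of the cultures. No animals are named either, so inserts of a group may share cells. The p-values then measure the spread between inserts, which may be technical, and the sexes differ by whatever else separates their cell preparations.

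Glycolysis splits glucose into pyruvate in the cytosol, and lactate dehydrogenase turns pyruvate into lactate, which lets the pathway run without oxygen. When oxygen is low, the transcription factor subunit HIF1A is no longer degraded. It then pairs with ARNT, binds short elements with the core ACGTG or GCGTG, and raises genes for glucose uptake, glycolysis, vessel growth and the removal of mitochondria. The aryl hydrocarbon receptor, a sensor of compounds found in smoke, pairs with the same ARNT and binds a core that holds GCGTG.

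Depth ran from 16038813 to 24485024 reads in genes over the 23 libraries whose values were used as whole reads. Female air insert 1 and female smoke insert 4 stood apart, because their gene levels moved with transcript length (Spearman correlation across genes -0.670 and -0.432). For the first of these, short transcripts (up to 1870 bases) had a median deviation of 1.14 from the group on the log2 scale, and long ones (from 4476 bases) had -0.86. The epithelial markers Epcam and Krt5 were present in all groups. Of 8 leukocyte markers, Ptprc, which defines the class, had group means of 1.49 to 3.63 normalised counts, and Cd3e, Adgre1 and Ly6g had at most 5.02. Lyz2, Itgam and Cd68 were higher. Lyz2 had means of 65401 in female air, 20565 in female smoke, 34098 in male air and 25843 in male smoke. Itgam had 1206, 2207, 32.1 and 203 in the same order, and Cd68 had 129.6, 229, 129 and 362, so that both had higher means in smoke. Of 5 endothelial markers, Cdh5 had 0 in 3 of the 4 groups and at most 0.923 in the other, and Emcn had 0 in all. Pecam1 and Tek had group means of at most 9.875 and 7.10. Vwf had means of 28.1 in female air, 6.12 in female smoke, 15.4 in male air and 9.79 in male smoke. Summed markers of the airway cell types differed between the groups. The 9 basal markers summed to 181844 to 279374 in female air, 263197 to 425458 in female smoke, 191256 to 238325 in male air and 135993 to 279968 in male smoke. The 7 squamous markers summed to 136374 to 284341, 299251 to 412998, 5503 to 11732 and 21865 to 54729 in the same order. Krt5, Krt14 and Krt15 made up most of the basal sums. In female smoke Ngfr and Dapl1 had lower means than in air and the other basal markers higher ones. In male smoke Krt15, Trp63, Ngfr, Dapl1 and Aqp3 had lower means than in air and the other basal markers higher ones. Krt13 made up most of the female squamous sums, and each squamous marker had a higher mean in smoke in both sexes. The 9 secretory markers summed to 144934 to 363745 in female air and 25889 to 139608 in female smoke, and to 389901 to 670765 and 74739 to 255209 in male cells. The 12 multiciliated markers summed to 22993 to 37811 in female air and 12919.5 to 26113 in female smoke. In male cells they summed to 13179.6 to 17541 in air and 12048 to 17302 in smoke. Tubb4b made up most of the male sums, with means of 9510 in air and 11868 in smoke. Every other multiciliated marker had a lower mean in male smoke than in male air, such as Foxj1 (727 against 1342). The 7 fibroblast markers summed to 290.2 to 1509 in female air and 22.8 to 159.5 in female smoke, and to 167 to 429.6 and 29.7 to 97.0 in male cells, without overlap in either sex. The part of these cell types in the results below was not tested, and in bulk RNA fewer cells of a type and less RNA per cell cannot be told apart.

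To show where the HIF core stands, the 250 bases before the start of transcription are given for the transporter, an early enzyme and the last enzyme of the pathway and for Bnip3, which was not called in either sex. The sequences are from RefSeq on GRCm38.p6, 5′ to 3′ on the strand of the gene. Capitals mark ACGTG and GCGTG and their reverse complements CACGT and CACGC, so each motif was sought on both strands. The windows are chr4:119108495-119108744 on the plus strand for Slc2a1, chr6:82774455-82774704 on the minus strand for Hk2, chr7:46845554-46845803 on the plus strand for Ldha and chr7:138909507-138909756 on the minus strand for Bnip3.
Slc2a1: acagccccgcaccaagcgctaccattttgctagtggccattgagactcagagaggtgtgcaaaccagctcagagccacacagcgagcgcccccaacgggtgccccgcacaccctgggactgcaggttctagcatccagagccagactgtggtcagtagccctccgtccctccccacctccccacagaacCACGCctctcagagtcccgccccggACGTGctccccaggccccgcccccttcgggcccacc
Hk2: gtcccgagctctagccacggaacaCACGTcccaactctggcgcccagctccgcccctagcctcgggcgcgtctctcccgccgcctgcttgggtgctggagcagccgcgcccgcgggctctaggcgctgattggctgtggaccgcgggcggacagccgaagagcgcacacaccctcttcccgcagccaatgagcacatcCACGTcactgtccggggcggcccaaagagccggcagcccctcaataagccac
Ldha: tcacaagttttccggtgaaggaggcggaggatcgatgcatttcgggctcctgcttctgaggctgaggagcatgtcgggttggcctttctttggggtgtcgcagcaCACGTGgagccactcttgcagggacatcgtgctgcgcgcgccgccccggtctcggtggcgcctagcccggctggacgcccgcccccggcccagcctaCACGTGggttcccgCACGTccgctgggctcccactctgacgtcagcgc
Bnip3: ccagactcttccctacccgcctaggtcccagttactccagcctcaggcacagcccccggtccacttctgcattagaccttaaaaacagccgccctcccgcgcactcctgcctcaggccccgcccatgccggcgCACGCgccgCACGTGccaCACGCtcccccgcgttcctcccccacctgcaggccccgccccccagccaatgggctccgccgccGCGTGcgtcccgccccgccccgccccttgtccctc

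Ldha held 3 marked stretches, of which 2 are CACGTG, a palindrome that counts on both strands, so that 5 matches of ACGTG were found in all. Hk2 held 2 matches of ACGTG and none of GCGTG, and Slc2a1 held 1 of each. Bnip3 held 4 marked stretches, with 2 matches of ACGTG inside 1 CACGTG and 3 of GCGTG. Of the 10 genes, 8 have an entry, with 12 start sites between them, and Ndrg1 and Angptl4 have none. A match stood in 9 of these 12 windows, and 38.6% of all 32851 windows of the same length held one. ACGTG stood in 16.57% of all windows and GCGTG in 28.16%. ACGTG lies inside the E-box CACGTG too, and a match is a description of the letters, not of binding.

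The enzyme genes Hk2, Pkm and Ldha rose after smoke in both sexes. In female cells Slc2a1, Hk1, Hk2, Pfkp, Pkm, Ldha and Vegfa rose by 1.39-fold (Hk1) to 2.31-fold (Hk2), and Angptl4 fell to 0.388 of its level in air. In male cells Hk2, Pkm, Ldha, Ndrg1 and Angptl4 rose by 1.52-fold (Hk2) to 3.79-fold (Angptl4), and no member fell. Calls are at a Benjamini-Hochberg adjusted p under 0.05 over all 13549 genes in 1 limma fit on log2(normalised count + 1), with 6 libraries in each group. So 7 of the 10 members rose and 1 fell in female cells, where 34.8% of all genes were called, 15.5% higher and 19.3% lower. In male cells 5 rose, where 22.0% of all genes were called, 9.76% higher and 12.2% lower. The median log2 change of the 10 was 0.69 in female and 0.73 in male cells, against -0.0026 and -0.0058 over all genes tested. All 6 smoke libraries lay above all 6 air libraries for 3 members in female cells, where 6.73% of all genes did, and for 2 in male cells, where 11% did. Changes below are on that log2 scale, with the standard error of the fit (n = 6 libraries in each group).

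**Figure D1:**
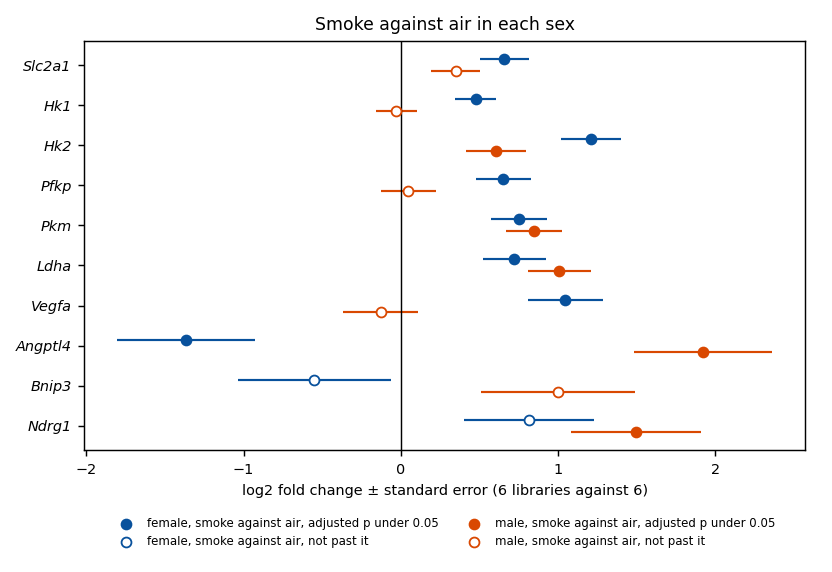
Smoke response of the 10 genes in female (blue) and male (orange) cultures, as the log2 fold change of smoke against air on the horizontal axis with its standard error as a bar. Filled points passed an adjusted p of 0.05, and Angptl4 stands at -1.37 in female and 1.92 in male cultures.

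Slc2a1 encodes GLUT1, the transporter that lets glucose into most cells by facilitated diffusion, and lies on chromosome 4 (mm10, 119108745 to 119137329, plus strand). It stood at 1555 to 2346 (median 2067) normalised counts in female air and at 2374 to 4557 (median 3089) in female smoke. The groups did not overlap, and the rise was 0.66 ± 0.16 (adjusted p = 0.00271). In male cells it stood at 1822 to 2281 (median 2069) in air and 2073 to 3446 (median 2523) in smoke. Here 4 smoke libraries were above every air library and 2 were within their range, and the difference of 0.35 ± 0.16 did not pass (adjusted p = 0.114). It passed for the male groups alone (0.35, adjusted p = 0.0322) and with inserts 1 to 3 alone (0.60, 0.0476). It also passed with a term for inserts 1 to 3 and 4 to 6 within each sex (0.35, adjusted p = 0.0476). The adjusted p ran from 0.0322 to 0.777 over the alternatives. The difference between the sexes in the response, 0.31 ± 0.22, did not pass either (adjusted p = 0.62).

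Hexokinases trap glucose in the cell by adding a phosphate. Hk1, the form found in most tissues (chromosome 10, 62268855 to 62379908, minus strand), stood at 2183 to 3891 (median 3188) in female air and 3153 to 5282 (median 4525) in female smoke. The lowest female air value was that of insert 1 (2183) and the lowest female smoke value that of insert 4 (3153), the 2 length-trend libraries. The rise was 0.48 ± 0.13 (adjusted p = 0.00683), and 0.46 without those 2 libraries. It did not pass for the female groups alone (0.48, adjusted p = 0.0581), and over the alternatives the adjusted p ran from 5.65e-06 to 0.132. Male Hk1 was nearly constant in air, at 4009.8 to 4251 (median 4187), and stood at 3708 to 4996 (median 3959.6) in smoke, a difference of -0.029 ± 0.13 (adjusted p = 0.895). Hk1 shares its place with Hk1os on the opposite strand, and whether the counting used strand is not given.

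Hk2 encodes a hexokinase that binds mitochondria and is known to be induced by growth signals and by HIF1A (chromosome 6, 82725027 to 82774454, minus strand). Of the glycolytic members it had the largest log2 change in female cells. It stood at 604 to 1169.8 (median 1001) in female air and 1349 to 3071 (median 2369) in female smoke, with no overlap. The rise of 1.21 ± 0.19 (adjusted p = 8.82e-05) was present in inserts 1 to 3 (1.44) and in inserts 4 to 6 (0.97). Within female smoke, inserts 4 and 5 were low (1349 and 1391) and insert 6 was the highest (3071). Male cells started higher, at 1460.4 to 1927 (median 1668), and reached 1844 to 3079 (median 2712). Of the male smoke libraries 5 were above every air library and insert 1 (1844) was within their range. The male rise of 0.60 ± 0.19 passed (adjusted p = 0.0247), but not without male air insert 2 (0.56, adjusted p = 0.056) or 3 (0.58, 0.051) or without male smoke insert 5 (0.55, 0.0522), and the adjusted p ran from 2.14e-05 to 0.178 over the alternatives. The response did not differ between the sexes past the threshold (0.60 ± 0.27, adjusted p = 0.327).

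Pfkp encodes the platelet form of phosphofructokinase, which commits sugar to glycolysis (chromosome 13, 6579874 to 6648771, minus strand). It stood at 916 to 1516 (median 1124) in female air and 1508 to 2310.4 (median 1775) in female smoke. Only 1 smoke library was within the air range, and the rise was 0.65 ± 0.18 (adjusted p = 0.00644). Male Pfkp stood at 895 to 1170.4 (median 1027) in air and 771 to 1783 (median 1033) in smoke, where insert 2 (1783) was the highest of all male libraries and inserts 1 and 6 were below every air library. The male difference was 0.047 ± 0.18 (adjusted p = 0.875). Pfkp overlaps Pitrm1 on the opposite strand.

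Pkm and Ldha stand at the end of the pathway and were the most abundant members. Pkm encodes the pyruvate kinase that yields pyruvate and ATP (chromosome 9, 59656368 to 59679375, plus strand), and a count per gene does not separate its M1 and M2 splice forms. It stood at 14181 to 21675 (median 14733) in female air and 22387 to 42729 (median 24938) in female smoke, and at 15034 to 20672 (median 18459.9) in male air and 24099 to 45773 (median 33155) in male smoke. Neither pair of groups overlapped. The rise was 0.75 ± 0.18 in female cells (adjusted p = 0.00266) and 0.85 ± 0.18 in male cells (adjusted p = 0.00167). In female cells it was 0.71 without the 2 length-trend libraries, of which insert 4 of the smoke group was at 42729 and insert 1 of the air group at 21675. The responses of the sexes did not differ past the threshold (-0.095 ± 0.25, adjusted p = 0.935).

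Ldha, which turns pyruvate into lactate (chromosome 7, 46845804 to 46855627, plus strand), stood at 8116 to 10339 (median 9071) in male air and 15216 to 25944 (median 18098) in male smoke. The male groups were far apart, with the lowest smoke library at 15216 and the highest air library at 10339, and the rise was 1.01 ± 0.20 (adjusted p = 0.00106). Female Ldha stood at 7323 to 18675 (median 9358) in air and 12769 to 29451 (median 15639) in smoke. Insert 1 of female air, at 18675, lay above 5 of the 6 smoke libraries, while the other 5 air libraries were below all 6. The transcript of Ldha is short, at 1816 bases, and the 2 length-trend libraries held the highest Ldha value of their groups. The female rise was 0.72 ± 0.20 (adjusted p = 0.00782), 0.74 without those 2 libraries and 0.77 with the length trend removed. It missed the threshold for the female groups alone (0.72, adjusted p = 0.054), and over the alternatives the adjusted p ran from 3.64e-05 to 0.381. Genes such as Ldha, Pkm, Gapdh, Eno1 and Pgam1 have processed copies in the mouse genome, and how reads shared with them were counted is not given, so their levels are uncertain.

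**Figure D2:**
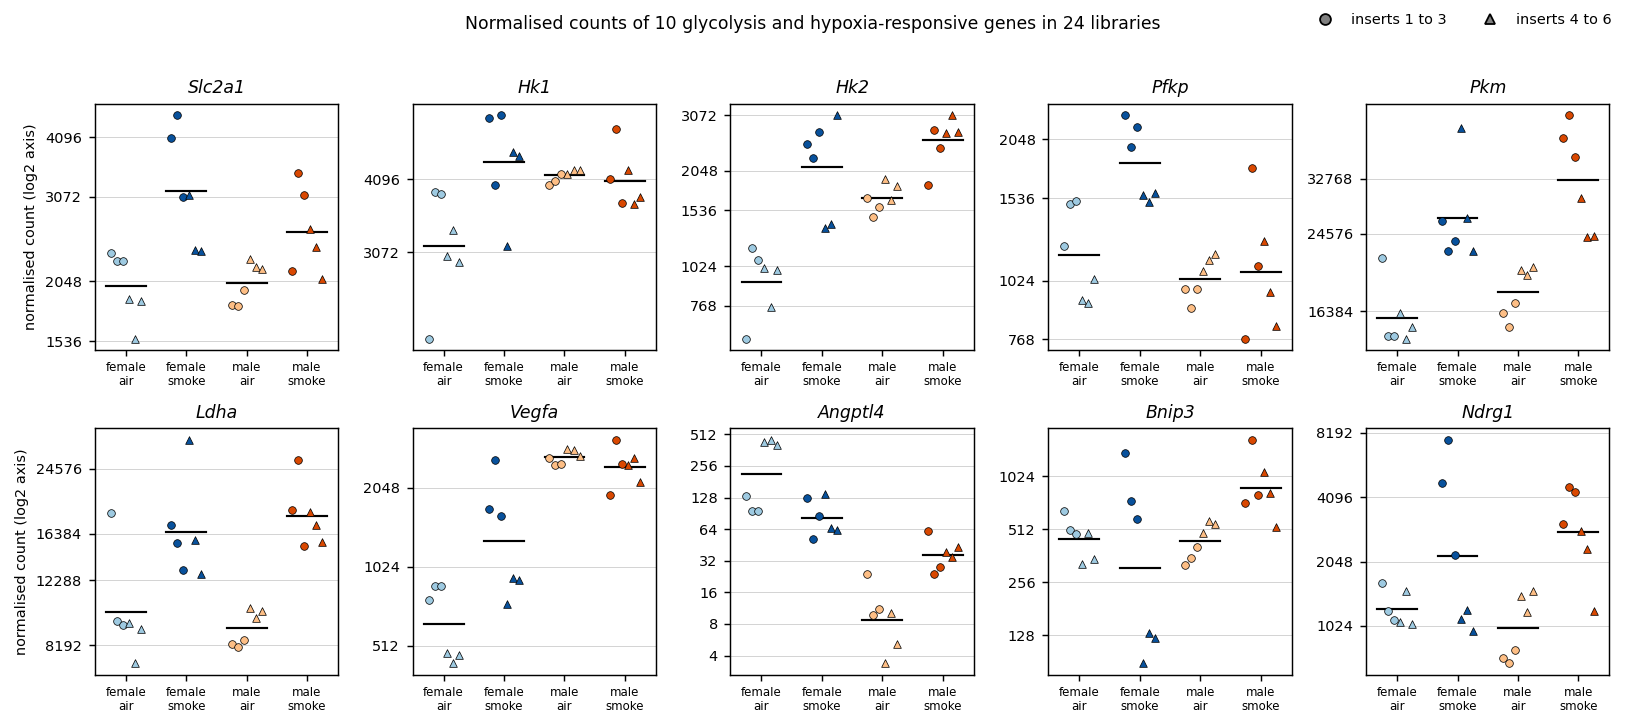
Normalised counts of the 10 genes in 24 libraries on log2 axes, with 1 panel per gene, 1 column per group, circles for inserts 1 to 3, triangles for inserts 4 to 6 and a line at the geometric mean of each group. Smoke and air do not overlap for Slc2a1 and Hk2 in female cultures, for Ldha in male cultures and for Pkm in both, while Bnip3 and Ndrg1 in female smoke split between the circles and the triangles.

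Of the secreted factors, Vegfa encodes the growth factor that drives the sprouting of blood vessels (chromosome 17, 46016993 to 46032377, minus strand). Female Vegfa stood at 439 to 868 (median 623) in air and 738 to 2613 (median 1264) in smoke. The rise of 1.05 ± 0.24 (adjusted p = 0.00212) passed under all 42 alternatives. The female values fell into levels by insert number. In air inserts 1 to 3 stood at 767 to 868 and inserts 4 to 6 at 439 to 479, and in smoke they stood at 1596 to 2613 and 738 to 932. Within each set of 3 the smoke libraries were above all air libraries, and the overlap of the whole groups came from setting one set against the other. Male Vegfa was high with or without smoke, at 2500.2 to 2879.6 (median 2678) in air and 1917 to 3132 (median 2519) in smoke, a difference of -0.13 ± 0.24 (adjusted p = 0.748).

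Angptl4 encodes a secreted inhibitor of lipoprotein lipase that is known to be raised by PPAR receptors, fasting and low oxygen (chromosome 17, 33774900 to 33781575, minus strand). In female cells it stood at 95.3 to 457 (median 269) in air and 52.1 to 138 (median 74.9) in smoke, a fall by 1.37 ± 0.44 on the log2 scale (adjusted p = 0.0188). In male cells it was near the filter in air, at 3.37 to 23.8 (median 9.95), and stood at 23.8 to 61.8 (median 36.7) in smoke, a rise of 1.92 ± 0.44 (adjusted p = 0.00329). At counts this low the pseudocount of 1 bears on the male fold change. The groups overlapped in both sexes. The female fall rested on the air libraries of inserts 4 to 6, at 405 to 457, against 95.3 to 134 in inserts 1 to 3. It missed the threshold without female air insert 4 (adjusted p = 0.0505), 5 (0.0525) or 6 (0.0501), for the female groups alone (0.0547) and with inserts 1 to 3 alone (-0.37, 0.588), and the adjusted p ran from 0.000803 to 0.588 over the alternatives. Angptl4 overlaps the gene models Gm27740 and Gm27775 on its own strand.

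Bnip3 encodes a protein of the outer mitochondrial membrane that marks mitochondria for removal by autophagy (chromosome 7, 138890836 to 138909506, minus strand). It was not called in either sex. In female air it stood at 323 to 645 (median 483). Female smoke inserts 1 to 3 stood at 587 to 1379 and inserts 4 to 6 at 88.7 to 131, so that the latter were below every female air library and 2 of the former above every one. The mean difference, -0.55 ± 0.49 (adjusted p = 0.417) lay between the values of the 2 sets. It was 0.64 with inserts 1 to 3 alone (adjusted p = 0.242) and -1.74 with inserts 4 to 6 alone (0.000626), and over the alternatives the adjusted p ran from 0.000626 to 0.893. Male Bnip3 stood at 321 to 568 (median 445) in air and 523 to 1648 (median 812) in smoke, where 5 of 6 libraries were above every air library. The male difference of 1.0 ± 0.49 missed the threshold in the fit of all libraries (adjusted p = 0.148) and passed for the male groups alone (0.00511). It also passed with inserts 1 to 3 alone and with a term for the insert sets. The adjusted p had a range of 0.00511 to 0.272 over the alternatives. The pooled spread of the fit includes the female smoke libraries.

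Ndrg1, known to rise in low oxygen, iron depletion and differentiation (chromosome 15, 66929318 to 66969641, minus strand), split in the same female libraries. It stood at 1049 to 1626 (median 1145) in female air. In female smoke it stood at 2204 to 7628 in inserts 1 to 3, all above every air library, and at 971 to 1215 in inserts 4 to 6, within or below the range of air. The female difference of 0.81 ± 0.41 did not pass (adjusted p = 0.132). It passed with inserts 1 to 3 alone (1.75, adjusted p = 0.0276) and without the 2 length-trend libraries (1.09, 0.0498). It also passed with edgeR and with DESeq2 on whole reads, which kept all female libraries. Over the alternatives the adjusted p ran from 0.0103 to 0.733. Male Ndrg1 stood at 684 to 1485 (median 992) in air and 1208 to 4579 (median 2967) in smoke, and the rise of 1.5 ± 0.41 passed (adjusted p = 0.0118). Only insert 6 of male smoke (1208) was within the range of air.

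The split between inserts 1 to 3 and 4 to 6 ran through several members, and the plot of the smoke response by insert set shows its size. The labels number the inserts and name no batch, this division was chosen from earlier results of these data, and the difference between the sets was not tested. With 3 libraries in each group, inserts 1 to 3 alone gave 4 called members in female cells, where 4.84% of all genes were called, and inserts 4 to 6 alone gave 9, where 46.1% were called. In male cells inserts 1 to 3 alone gave 5, where 18.5% of all genes were called, and inserts 4 to 6 alone gave 1, Angptl4, where 6.87% were called. In male cells the change was larger in inserts 1 to 3 for Pkm (1.34 against 0.35), Ldha (1.24 against 0.78) and Ndrg1 (2.42 against 0.57). Male Angptl4 went the other way (1.27 against 2.57). In female cells Pkm (0.54 against 0.96) and Ldha (0.36 against 1.08) were larger in inserts 4 to 6, where insert 4 of smoke is a length-trend library, and insert 1 of air, the other such library, is among inserts 1 to 3. Slc2a1, Hk2 and Vegfa were called in both sets of female inserts. With inserts 1 to 3 alone the female changes of Hk1 (adjusted p = 0.132), Pfkp (0.143), Pkm (0.12) and Ldha (0.381) missed the threshold. Male Hk2 missed it in both sets (0.124 and 0.178), male Pkm (0.379), Ldha (0.0913) and Ndrg1 (0.258) with inserts 4 to 6, and male Angptl4 (0.0776) with inserts 1 to 3. Over the alternatives the adjusted p ran from 0.000464 to 0.143 for female Pfkp and from 0.000107 to 0.12 for female Pkm. For male cells it ran from 4.22e-06 to 0.379 for Pkm, 8.75e-08 to 0.0913 for Ldha, 0.00184 to 0.258 for Ndrg1 and 0.000296 to 0.0776 for Angptl4.

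**Figure D3:**
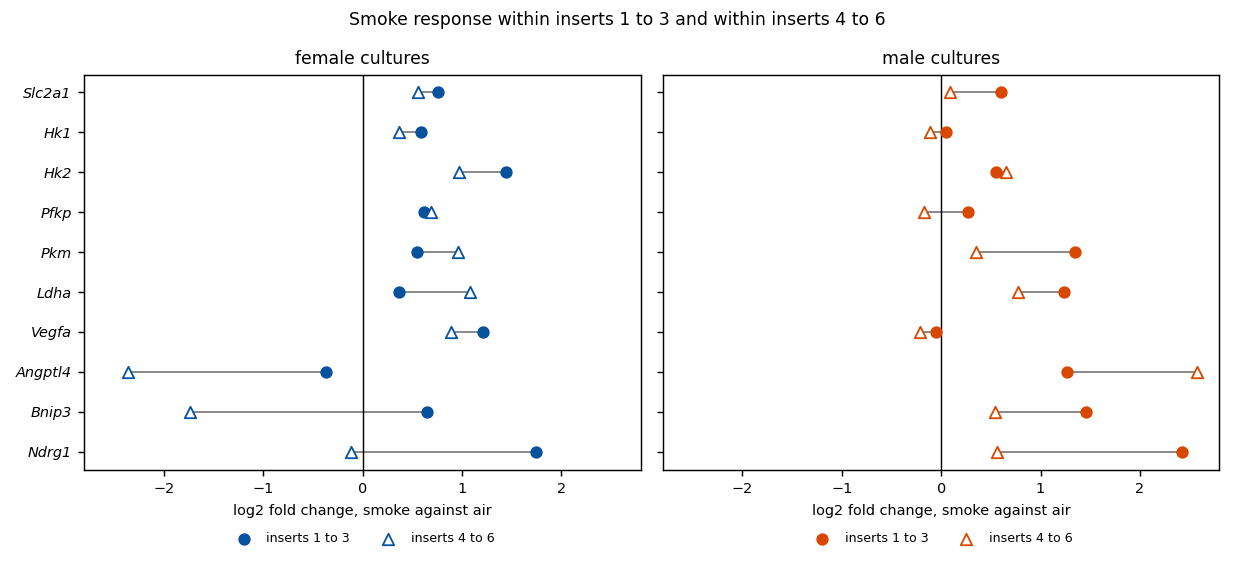
Log2 fold change of smoke against air within inserts 1 to 3 (filled circles) and within inserts 4 to 6 (open triangles), for female cultures on the left and male cultures on the right, joined by a line for each gene. Female Bnip3 stands on both sides of 0, at 0.64 and -1.74, and male Ndrg1 moves from 2.42 to 0.57.

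In air the sexes differed in 4 members, where 39.0% of all genes were called, 20% higher and 19.0% lower in female cells. Vegfa was lower in female air by a factor that left it at 0.232 of the male level (-2.11 ± 0.24, adjusted p = 2.38e-07), and the highest female air library (868) was far below the lowest male one (2500.2). Hk2 (-0.88 ± 0.19, adjusted p = 0.000734) and Hk1 (-0.40 ± 0.13, 0.0171) were lower too, although Hk1 missed the threshold with inserts 1 to 3 alone (-0.35, 0.261) and with a term for the insert sets (-0.34, 0.0982), in a range of 6.16e-06 to 0.261. Angptl4 was higher in female air by 4.44 ± 0.44 (adjusted p = 2.76e-08), with its lowest female library at 95.3 and its highest male library at 23.8. All 4 were free of overlap between the groups, 1 higher and 3 lower, as were 33.2% of all genes, 16.6% higher and 16.7% lower. Slc2a1, Pfkp, Pkm, Ldha, Bnip3 and Ndrg1 were not called, with differences between -0.19 (Pkm) and 0.31 (Ndrg1).

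The difference of the responses, female minus male, was called for Angptl4 alone (-3.29 ± 0.62, adjusted p = 0.00979), where 1.03% of all genes were called, 0.694% higher and 0.34% lower. All 6 female smoke libraries were below the female air mean and all 6 male smoke libraries above the male air mean. With inserts 1 to 3 alone the Angptl4 difference was -1.64 and did not pass (adjusted p = 0.33), and over the alternatives the adjusted p ran from 3.23e-05 to 0.33. Vegfa had the next smallest adjusted p of the members (1.18 ± 0.34, 0.0936). It passed without female smoke insert 4 (1.33, adjusted p = 0.0283) and under 5 other alternatives, and its adjusted p ran from 0.000765 to 0.163 over them. At an unadjusted p under 0.05 there were 6 of the 10 members, and 13.2% of all genes. The Hk1 difference passed under 2 alternatives, without the 2 length-trend libraries (0.49, adjusted p = 0.0204) and with array quality weights (0.61, 0.000412). That of Pfkp passed under 2, array quality weights (0.79, 0.0138) and inserts 4 to 6 alone (0.86, 0.0282), and that of Slc2a1 under 0. So the calls of Slc2a1, Hk1, Pfkp and Vegfa in female but not male cells are not shown to be a difference between the sexes by the fit of all libraries.

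Per kilobase of transcript, Pkm and Ldha led the 10 genes in every group. Pkm had a mean of 6572 normalised counts per kilobase in female air, 11243 in female smoke, 7484 in male air and 13772 in male smoke, and Ldha had 5809, 9538, 5051 and 10272 in the same order. Their ranges overlapped in every group but male air, and the range of Ldha was apart from the gene after it in all 4. Next came Slc2a1 in female air (788) and female smoke (1268), Hk1 in male air (1001) and Ndrg1 in male smoke (1061), and except in male air this gene overlapped with the one after it. Vegfa ranked 8 in female air (184) and 5 in male air (761). Angptl4 was last in every group, from 142 in female air to 5.54 in male air, and its range overlapped that of the gene before it in female air (Hk2) and female smoke (Bnip3) but in neither male group.

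Ratios between related genes within a library do not depend on the scaling between libraries. Each was set against air with a two-sided exact permutation test over 6 against 6 libraries, on log2 ratios, with 8 tests in all, and the pairs were chosen with their values in view. The ratio of Ldha to Ldhb, the subunit that favours the reverse reaction, went from 8.26 ± 1.03 to 26.1 ± 5.84 (SD, n = 6) in female cells and from 7.59 ± 0.965 to 38.0 ± 20.1 in male cells. Ldhb itself fell in both sexes (-0.91 ± 0.26, adjusted p = 0.00857, and -1.15 ± 0.26, 0.00265). The Ldha to Ldhb ratios did not overlap in either sex, and both exact p-values were 0.00216 (0.00577 adjusted over the 8), the smallest that 6 against 6 libraries allow.

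The ratio of Hk2 to Hk1 went from 0.292 ± 0.0414 to 0.495 ± 0.128 in female cells (exact p = 0.00649, adjusted 0.00742) and from 0.406 ± 0.0382 to 0.639 ± 0.131 in male cells (exact p = 0.00433, adjusted 0.00693), a rise in both. Pfkp against Pfkl, the liver form of phosphofructokinase, moved in opposite directions. It went from 0.563 ± 0.134 to 0.873 ± 0.158 in female cells (exact p = 0.00216, adjusted 0.00577). In male cells it went from 0.346 ± 0.0290 to 0.230 ± 0.0465 (exact p = 0.00433, adjusted 0.00693). The difference between the sexes was not tested. Pfkl itself was called higher in male smoke, where Pfkp was not called, and Pfkl was not called in female smoke. Bnip3 against its relative Bnip3l went from 0.236 ± 0.0491 to 0.397 ± 0.107 in male cells (exact p = 0.00649, adjusted 0.00742). In female cells that ratio was 0.0522 to 0.596 in smoke and 0.158 to 0.301 in air (exact p = 0.468). Without the 2 length-trend libraries the female log2 differences were 1.53 for Ldha to Ldhb, 0.75 for Hk2 to Hk1 and 0.49 for Pfkp to Pfkl, with exact p-values of 0.00794, 0.0238 and 0.00794.

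**Figure D4:**
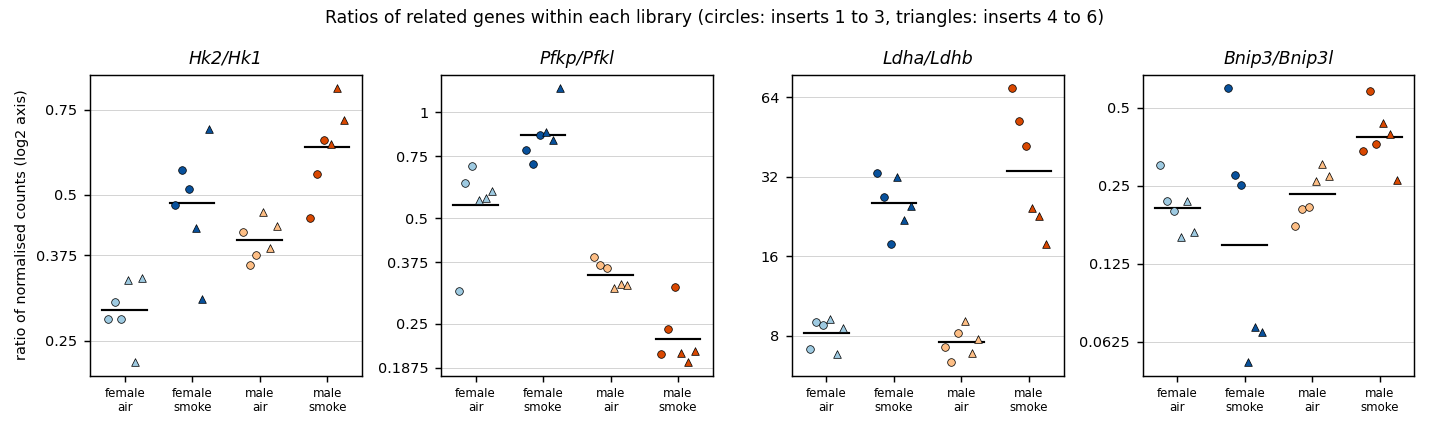
Ratio of the normalised counts of related genes within each library, on log2 axes, with circles for inserts 1 to 3, triangles for inserts 4 to 6 and a line at the geometric mean of each group. Ldha against Ldhb lies at 6.83 to 9.26 in female air and at 17.9 to 33.0 in female smoke, and Pfkp against Pfkl is higher in female smoke and lower in male smoke.

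The rest of the pathway is given here from lists of known genes, with changes as log2 fold changes in female and then male cells. Of all genes tested, 15.5% were called higher and 19.3% lower in female cells, and 9.76% and 12.2% in male cells. Of 23 genes for glucose transport and glycolytic enzymes tested, with Slc2a1, Hk1, Hk2, Pfkp and Pkm among them, 10 rose and 2 fell in female cells and 9 rose and 3 fell in male cells. Gapdh (0.92 and 0.85), Pgk1 (0.72 and 1.04), Pgam1 (0.97 and 0.68) and Eno1 (0.84 and 0.90) rose in both sexes. Pgk1 makes the first ATP of the pathway, Gapdh precedes it, and Pgam1 and Eno1 lead on to the substrate of Pkm. Gapdh had group means of 348 to 794 normalised counts, with its processed copies as a limit. Pklr, the liver and red cell form of pyruvate kinase, fell in female cells (-3.00, adjusted p = 0.00485). Pfkm (-0.90, adjusted p = 0.000102), Slc2a8 (-0.75, 0.0012) and the scarce Slc2a3 (-1.90, 0.00212) fell in male cells. The median log2 change of the list was 0.41 in female and 0.05 in male cells, against -0.0026 and -0.0058 over all genes. Slc2a3, like Stc1 and Ndrg4 below, falls outside the rule for named genes and was chosen after its values were seen.

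Among 13 genes that control the flux, 4 rose and 1 fell in female and 3 rose in male cells. For this list and the next, the shares over all genes were 15.5% higher and 19.3% lower in female cells. In male cells they were 9.76% and 12.2%. Pfkfb4, which sets the level of a fructose bisphosphate that activates phosphofructokinase, rose in both (1.59 ± 0.23 and 1.89 ± 0.23, adjusted p = 4.53e-05 and 8.86e-06), as did Myc (1.41 and 0.85), a transcription factor that drives glycolytic genes. Only G6pc3 fell (-0.40 in female cells, adjusted p = 0.047). For 20 genes of lactate and pyruvate handling, 6 rose and 5 fell in female cells and 2 rose and 4 fell in male cells. The lactate carrier Slc16a1 rose (1.95 ± 0.27 and 1.26 ± 0.27, adjusted p = 2.53e-05 and 0.00196) and its relative Slc16a7, with a high affinity for pyruvate, fell (-1.64 ± 0.29 and -2.05 ± 0.29, adjusted p = 0.000294 and 4.11e-05). In female cells Pdk4, a kinase that shuts pyruvate dehydrogenase, fell (-1.33) and Pdp2, a phosphatase that opens it, rose (1.0). In male cells Pdk4 was at -0.33 (adjusted p = 0.348) and Pdp2 at 0.48 (0.0668).

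**Figure D5:**
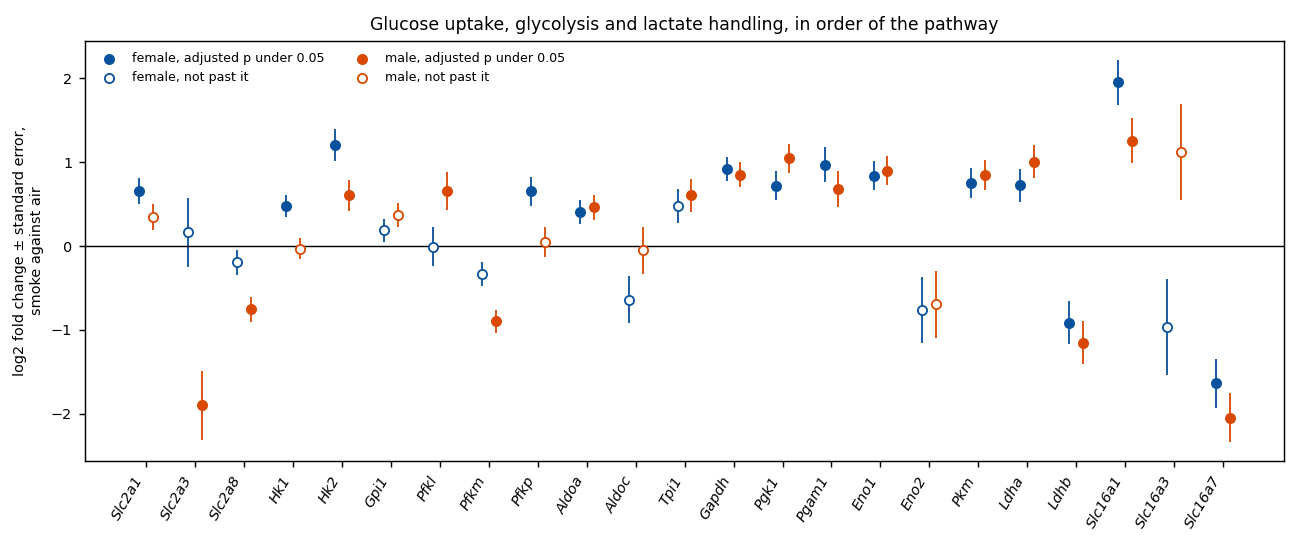
Log2 fold change of smoke against air with its standard error for genes of glucose uptake, glycolysis and lactate handling, in the order of the pathway, in female (blue) and male (orange) cultures, filled where the adjusted p is under 0.05. From Gapdh to Ldha all genes shown but Eno2 rose in both sexes, while Ldhb and Slc16a7 fell in both and Slc16a1 rose in both.

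Of the 13 genes that sense oxygen, 3 rose and 2 fell in female and 2 rose and 2 fell in male cells. The shares over all genes were 15.5% higher and 19.3% lower in female cells, and 9.76% and 12.2% in male cells. Hif1a mRNA rose in female cells (0.77 ± 0.11, adjusted p = 4.53e-05), at 3114 to 4225 in air and 4579 to 7427 in smoke, and stood at 0.21 ± 0.11 in male cells (adjusted p = 0.179). The protein, which is what oxygen controls, was not measured here. Epas1, which encodes HIF-2 alpha, fell in male cells (-1.94 ± 0.43, adjusted p = 0.00246) and was at -0.75 ± 0.43 in female cells (0.184). Of the prolyl hydroxylases that mark HIF for degradation, Egln3, itself known as a HIF target, rose in male cells (2.15 ± 0.74, adjusted p = 0.0405) and was at 0.80 ± 0.74 in female cells (0.442). Egln2 fell in male cells (-0.55, adjusted p = 0.0406), and Egln1 (0.16 and 0.27) and the ubiquitin ligase gene Vhl (0.025 and -0.015) were called in neither sex. Cited2, a HIF-induced inhibitor of HIF, rose in female cells (0.86, adjusted p = 0.00153), Siah2 rose in both (0.45 and 0.57), and Arnt2, a relative of Arnt, fell in female cells (-1.34, 0.029).

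A list of 34 hypoxia-responsive genes, 4 members among them, had 9 up and 4 down in female cells and 17 up and 1 down in male cells, with median log2 changes of 0.25 and 0.85. Over all genes 15.5% rose and 19.3% fell in female cells, and 9.76% rose and 12.2% fell in male cells. Ero1l, an oxidase of disulfide formation (1.5 ± 0.28 and 1.5 ± 0.28, adjusted p = 0.000387 and 0.000563), and Ak4, a mitochondrial adenylate kinase (1.38 ± 0.46 and 2.32 ± 0.46, adjusted p = 0.0227 and 0.000999), rose in both sexes. P4ha1, the collagen prolyl hydroxylase, was at 0.74 in female inserts 1 to 3 and at -0.12 in female inserts 4 to 6. The interaction was called for Plin2, which coats lipid droplets (-1.20, adjusted p = 0.0476), Stc1 (-3.17, 0.0476), Insig2 (0.49, 0.0432) and Angptl4, so that 4 of the 34 differed between the sexes, where 1.03% of all genes did.

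Among 6 tested genes of the VEGF family and its receptors, the co-receptor Nrp1 (1.85 ± 0.54, adjusted p = 0.0103) rose with Vegfa in female cells, and in male cells Nrp2 rose (0.98, adjusted p = 0.0157) and Vegfb fell (-0.93, 7.28e-05). Of 18 PPAR-responsive genes of fatty acid use, among which Angptl4 is counted, 2 rose and 5 fell in female cells. In male cells 3 rose and 9 fell. For every list in this paragraph, the VEGF, NDRG and angiopoietin-like lists among them, 15.5% of all genes were higher and 19.3% lower in female cells. The male shares were 9.76% and 12.2%. Ppard itself rose in both (1.07 and 0.66), as did Fabp5 (1.69 and 0.99), and Ehhadh fell in both (-0.68 and -1.08). For 15 mitophagy and BNIP genes 2 rose and 5 fell in female cells and 4 fell in male cells. The mitochondrial kinase Pink1 fell in both (-1.40 ± 0.22 and -0.75 ± 0.22, adjusted p = 7.56e-05 and 0.0157), and Bnip3l was called in neither. Of the 4 NDRG genes Ndrg1 and the scarce Ndrg4 rose and Ndrg3 fell in male cells (-0.54 for Ndrg3, adjusted p = 0.00204). Angptl2 fell in female cells (-1.32, adjusted p = 0.00139), and it is 1 of 3 angiopoietin-like genes that were tested.

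For each member the 2 genes with the most similar profile over the 24 libraries were found by the root mean squared difference of log2 values, each gene centred on its own mean. Pkm had the closest partners, Eno1 (0.14) and Eno1b (0.15), which are near-identical genes, followed by Hk1 with Eloa (0.16) and Vps26b (0.17). Ldha was nearest to Pgk1 (0.22) and Tpi1 (0.23), Slc2a1 to Phf10 (0.24) and Egln1 (0.25), and Pfkp to Itpk1 (0.24) and Ipmk (0.25). Hk2 was nearest to Slc7a1 (0.30) and Aars (0.31), and Vegfa to Grb10 (0.34) and Hdgfl3 (0.44). Ndrg1 stood with P4ha1 (0.47) and Ak4 (0.62). Bnip3 was nearest to Smtnl2 (0.61) and Pfkl (0.65), and Angptl4 to Tgfbi (0.83) and Sox7 (0.84). All libraries share their scaling and the 2 length trends, so these are descriptions without a test.

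The authors' deposited tables, which compare 2 groups at a time with DESeq2, called 3 further members after their sign was turned to smoke against air. In the authors' deposited table for female cells Ndrg1 stood at 1.10 (adjusted p = 0.0349) and 27.3% of genes were called. In the authors' deposited table for male cells Bnip3 stood at 0.99 (adjusted p = 8.45e-05) and Slc2a1 at 0.37 (0.0111), and 42.1% of genes were called. Female Bnip3 stood at 0.10 in the authors' deposited table (adjusted p = 0.906), on the other side of 0 from the value of -0.55 given above. In air the authors' deposited table called the same 4 members as above, Hk1, Hk2, Vegfa and Angptl4, with 36.6% of genes called.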

How the data were processed

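RNA-seq of 24 libraries was used, 6 inserts in each of 4 groups taken from the labels. The submitters' processing notes name DESeq2, HTSeq, Trimmomatic 0.38.0 and FastQC 0.11.9, and mm10 and GRCm38 as builds. Neither the aligner nor the strand setting is given in the sources used here. The deposited expression signal is a normalised count, which the authors made by dividing each library's gene counts by 1 size factor, with no scaling for gene length. The authors' deposited tables hold log2 fold changes with standard errors and p-values per the file headers, and positions on mm10. Their sign was turned to smoke against air and female against male.

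Here log2(normalised count + 1) was fitted with limma 3.58.1 (R 4.3.3; eBayes with a trend) over all 24 libraries, for genes with a mean of at least 10. The Benjamini-Hochberg adjusted p-values are over 13549 genes, and adjusted p-values in the report are from that limma fit unless the sentence names an exact test or the authors. The limma fit was also run on simulated independent counts. These held no length trend, no insert sets and no shared cells, so the simulation does not bear on those limits. Dividing by the smallest step of a library gave whole numbers (100% of values, within 0.001) in all 24 libraries. In 23 of them these were used as whole reads, between 16038813 and 24485024 reads. Those 23 entered edgeR 4.0.16 and DESeq2 1.42.0 as alternatives. Male smoke insert 5 was left out of them by a rule, because its step is close to 1. Ratios were tested with scipy 1.17.1 (python 3.11.15, pandas 2.3.3).

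The alternatives were other scalings, a pseudocount of 0.5 or 5, a minimum mean of 50 or none, other fits, a replicate block, each library left out, insert sets alone or as a term, and removal of the length trend. All 10 members are named. From each list, called genes that reach a mean of 50 in either group are named, up to 2 at each end of the order of changes, with the oxygen sensors and the 2 nearest genes of each member. The members, lists and ratios were chosen with earlier results of these data known. Some genes that this rule names are not reported here.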

Additional observations from a re-analysis of the deposited data

Results flagged for a closer look

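In 5 of the 40 sets of 6 libraries, 1 library lay far from the other 5, with a gap past the 95% limit of Dixon's test for 6 values. Chance alone does this in about 1 of 20 such sets. Pkm was at 21675 normalised counts in female air insert 1, with the other 5 at 14181 to 16220.2, and at 42729 in female smoke insert 4, with the others at 22387 to 26632. Ldha was at 18675 in female air insert 1, with the others at 7323 to 9512, and at 29451 in female smoke insert 4, with the others at 12769 to 17361. These are the 2 libraries whose gene levels moved with transcript length, and the part of that trend in the high values was not tested. Ldha was also at 25944 in male smoke insert 2, with the others at 15216 to 18990.4.

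The smoke response of Angptl4 differed between the sexes by -3.29 on the log2 scale (limma interaction term, adjusted p = 0.00979, 6 libraries in each group), with all 6 female smoke libraries below the female air mean and all 6 male smoke libraries above the male one.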

How the results depend on the processing

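In the fit of all libraries 8 members were called in female smoke, 5 in male smoke, 4 between the sexes in air and 1 in the interaction. Leaving out each library in turn gave 7 to 8, 4 to 5, 4 and 1 to 2, and the 2 in the interaction came without female smoke insert 4. The shares of all genes called then ran from 30.6% to 46.1%, 15.6% to 33.9%, 34.6% to 44.8% and 0.55% to 3.18%. The female count was 5 with the 2 groups alone (21.1% of all genes called, against 34.8% with all libraries) and 4 with inserts 1 to 3 alone (4.84%), and 9 without the 2 length-trend libraries (45.7%), with inserts 4 to 6 alone (46.1%), with edgeR (34.5%) and with DESeq2 (38.3%). The male count was 1 with inserts 4 to 6 alone (6.87%, against 22.0%), and 7 with the 2 groups alone (45.4%) and with a term for the insert sets (24.9%). The interaction count was 5 with array quality weights (17.9% of all genes, against 1.03%), 3 without the 2 length-trend libraries (6.20%), 0 with inserts 1 to 3 (0.295%), 4 with inserts 4 to 6 (4.70%), 2 with the insert term (2.25%) and 2 with DESeq2 (3.73%). The cause of these differences was not tested. Whether insert numbers pair the samples is not given by the labels. Of 36 same-numbered pairs of libraries, 14 correlated above 0.1 (range -0.242 to 0.367). For 1 of 24 libraries its own number was the best match in every other group at once. That count is too strict to decide whether the samples are paired. With a replicate block the counts were 8, 5, 4 and 1, where 33.5%, 20.65%, 38.4% and 0.83% of all genes were called.

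The changes that turned sign were all uncalled in the fit of all libraries. In female smoke, Bnip3 was at 0.64 with inserts 1 to 3, 0.10 with edgeR and 0.12 with DESeq2, and Ndrg1 at -0.12 with inserts 4 to 6. In male smoke, Hk1 was at 0.053 with inserts 1 to 3, 0.0060 with edgeR and 0.0057 with DESeq2, and Pfkp at -0.028 with array weights, -0.17 with inserts 4 to 6 and -0.10 to 0.14 with each library left out. Between the sexes in air, Slc2a1 was at 0.29 with inserts 1 to 3, 0.21 with the insert term, 0.0019 with edgeR and -0.067 to 0.052 with each library left out. Inserts 4 to 6 gave -0.23 for Pfkp, -0.23 for Ldha, -0.48 for Bnip3 and -0.19 for Ndrg1, and inserts 1 to 3 gave 0.035 for Pkm. Ldha was at -0.032 with quantile scaling, -0.025 with array weights, -0.039 without the 2 libraries and -0.039 to 0.23 with each left out. Bnip3 was at -0.083 with library totals, -0.22 with array weights, -0.050 without the 2 libraries, -0.036 with the length trend removed and -0.050 to 0.15 with each left out. In the interaction, Pkm was at 0.054 with array weights, 0.61 with inserts 4 to 6 and -0.23 to 0.0038 with each library left out, and Ldha at 0.31 with inserts 4 to 6.

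Scaling by library totals moved the median of all genes between the sexes in air from 0.0188 to -0.1149, and its calls were 2083 higher and 3387 lower, against 2713 and 2569. The level of Angptl4 was low in male air, at 3.37 to 23.8 normalised counts.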
